A study of Mus musculus with 6 samples.

Results

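The genes described here encode the structural proteins of hair: the hair keratins, the keratins of the inner root sheath and companion layer, and the keratin-associated proteins. Members were chosen by symbol alone, as every gene whose symbol begins with Krtap or is Krt25 to Krt28, Krt31 to Krt36, Krt71 to Krt75 or Krt81 to Krt86. Of 77 symbols in the reference table that meet this rule, 71 had a probe on the array, among 21368 named genes in all. They comprise 51 Krtap genes and 20 keratin genes, measured by 84 probes. Krt83, Krtap27-1, Krtap28-13, Krtap29-1, Krtap4-13 and Krtap6-3 had no probe named for them.

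The samples were epidermis of mouse embryos at day E16, labelled as of 129SvEx:C57BL/6 strain. Per the study's methods that mixed background was the floxed parents', which also lacked Sox12, and the Cre parents were FVB/N. The Sox12 genotype of the embryos is not given in the sources used here. Krt14-Cre, which is active in keratin 14-expressing basal cells of stratified epithelia, deleted floxed alleles of Sox4 (Sox4 cKO), of Sox11 (Sox11 cKO) or of both (dcKO). Each two-colour array set knockout RNA against RNA of a wild-type littermate, with 2 arrays per genotype. The wild-type samples carry none of these deletions by label, and the labels do not say whether any wild-type RNA served more than 1 comparison. Replicate 1 carried the knockout in Cy5 and replicate 2 in Cy3. Per the study's methods the epidermis was separated from dorsal skin with dispase, so the deletions were confined to keratin 14 lineage cells while the sample could also hold other cells of the sheet.

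Hair keratins assemble as pairs of a type I and a type II chain into the filaments of the hair shaft. Keratin-associated proteins are small matrix proteins, rich in cysteine or in glycine and tyrosine, that embed and cross-link those filaments through disulfide bonds. Krt25 to Krt28 and Krt71 to Krt74 form the filaments of the inner root sheath, which moulds the growing shaft, and Krt75 marks the companion layer around it. Most of these genes are switched on in matrix descendants once a follicle begins to build a shaft, and in embryonic skin many follicles are still buds or pegs without one. Sox4 and Sox11 encode closely related HMG-box transcription factors expressed in many embryonic progenitors.

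The deletions were checked first with the probes of the targeted genes. One Sox4 probe was well above background in all wild-type samples and in no Sox4 cKO or dcKO sample, which made the Sox4 cKO value at least 3.05-fold lower than wild type (adjusted p = 0.0284 in limma) and the dcKO value at least 3.0-fold lower (adjusted p = 0.00223). The brighter Sox4 probe was lower by less, with log2 values of −0.42 and −0.82 (adjusted p = 0.802 and 0.0768). Both Sox11 probes lay near background and could not check the Sox11 deletion. The brighter had 0.26 and −0.17 in Sox11 cKO (adjusted p = 0.979) and −0.96 and −0.48 in dcKO (adjusted p = 0.196). Per the study, loss of Sox4 and Sox11 in the knockouts was verified by RT-qPCR before the arrays were run. All 9 epidermal marker genes (Krt5, Krt14 and others) were well above background in all 12 samples.

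The following sequences lie in front of the 4 members that rose in dcKO and of Krtap3-3, the neighbour of Krtap3-2 whose value went the other way. Each gives the 250 bases before the annotated transcription start on the gene's own strand, from RefSeq (GRCm38.p6). Capitals mark TATAA within the last 60 bases, and the SOX core letters ACAAT or ACAAAG on either strand.
Krt72 (chr15:101786521-101786770, minus strand): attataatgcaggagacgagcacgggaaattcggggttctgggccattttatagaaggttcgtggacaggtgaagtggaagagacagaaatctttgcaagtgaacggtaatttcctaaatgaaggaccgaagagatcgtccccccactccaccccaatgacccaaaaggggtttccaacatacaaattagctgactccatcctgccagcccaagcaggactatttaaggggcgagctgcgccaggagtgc
Krtap10-4 (chr10:77827071-77827320, minus strand): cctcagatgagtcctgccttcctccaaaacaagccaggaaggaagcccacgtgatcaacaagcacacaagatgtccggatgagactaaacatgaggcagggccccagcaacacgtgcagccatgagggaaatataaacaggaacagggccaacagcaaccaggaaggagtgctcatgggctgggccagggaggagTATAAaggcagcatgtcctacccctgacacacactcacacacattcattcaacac
Krtap3-2 (chr11:99556854-99557103, minus strand): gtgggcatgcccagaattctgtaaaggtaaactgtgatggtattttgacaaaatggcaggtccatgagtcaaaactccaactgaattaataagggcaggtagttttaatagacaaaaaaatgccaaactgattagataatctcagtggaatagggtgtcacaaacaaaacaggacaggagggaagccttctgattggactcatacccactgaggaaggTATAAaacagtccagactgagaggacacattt
Krtap5-3 (chr7:142201114-142201363, plus strand): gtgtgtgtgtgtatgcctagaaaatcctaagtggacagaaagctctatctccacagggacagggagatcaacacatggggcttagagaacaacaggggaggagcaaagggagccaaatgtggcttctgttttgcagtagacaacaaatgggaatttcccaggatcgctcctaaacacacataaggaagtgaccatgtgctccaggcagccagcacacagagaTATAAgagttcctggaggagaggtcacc
Krtap3-3 (chr11:99550864-99551113, minus strand): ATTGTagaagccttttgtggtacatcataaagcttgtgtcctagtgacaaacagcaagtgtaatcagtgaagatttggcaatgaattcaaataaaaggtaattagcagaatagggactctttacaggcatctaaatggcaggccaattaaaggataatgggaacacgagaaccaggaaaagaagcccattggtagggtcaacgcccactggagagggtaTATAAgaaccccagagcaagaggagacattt
A promoter was listed for 61 of the 71 members. TATAA on the gene's strand stood in the last 60 bases of 82.0% of these (50 of 61), against 5.57% of all 32851 promoters in the table. It began 28 to 55 bases before the start in the Krtap10-4, Krtap3-2, Krtap5-3 and Krtap3-3 sequences shown. ACAAT, read on both strands, occurred in 39.3% of members and 27.7% of all promoters. For ACAAAG the shares were 26.2% and 16.5%, and for TCAAAG, the core letters bound by LEF and TCF factors, 27.9% and 13.8%. None of these 4 motifs contains another. ACAAT and ACAAAG were not among the letters in front of the 4 genes that rose, while Krtap3-3 had 1 match to ACAAT. A match is a stretch of letters and not a bound site.

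Most members were at or near background in E16 epidermis. A member counted as well above background when the scanner marked its brightest probe so, and 33 of 71 (46.5%) were in at least 1 of the 12 samples, against 62.8% of all named genes. Of these, 11 members were above background in all 12 samples and 22 in some, and 38 were in none. Between 18 and 26 members were above background in a single sample. Keratins were detected more often than Krtap genes, with 12 of 20 keratins against 21 of 51 Krtap genes, a difference that was not tested.

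**Figure D1:**
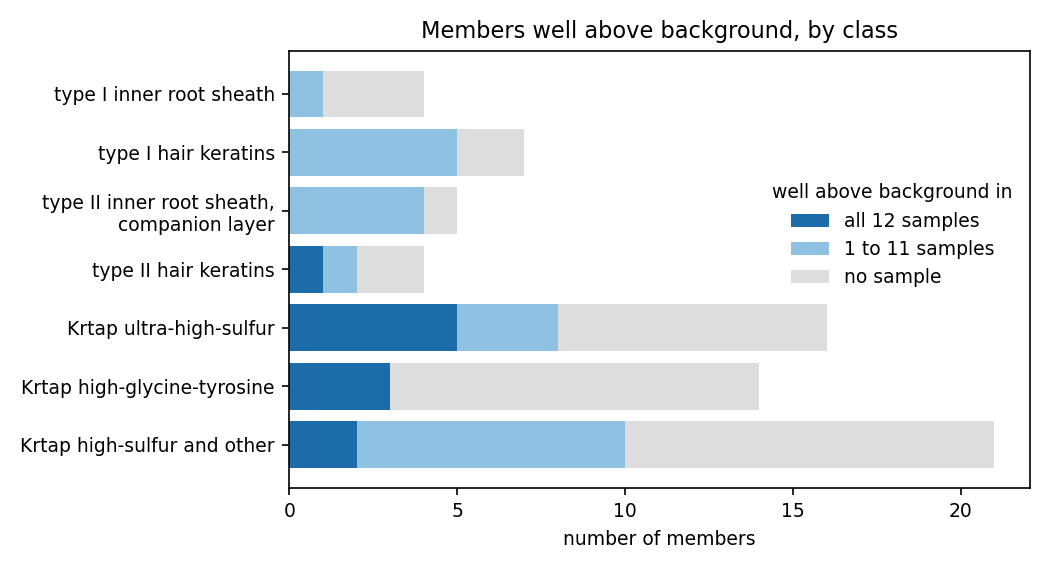
Number of members in each class (horizontal axis) split by whether their brightest probe was well above background in all 12 samples, in 1 to 11 samples or in none. High-glycine-tyrosine genes were split between 3 members detected in all samples and 11 in none.

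Among the Krtap genes, the ultra-high-sulfur class (Krtap4, Krtap5, Krtap9 and Krtap17), whose proteins are mostly cysteine-rich repeats, had 8 of 16 members above background. Krtap5-1, Krtap5-2, Krtap5-3, Krtap5-5 and Krtap4-8 were detected in all 12 samples. The high-glycine-tyrosine class had 3 of 14, and Krtap19-4, Krtap19-5 and Krtap20-2 were each detected in all samples. In the remaining high-sulfur and other families 10 of 21 members were detected, of which Krtap10-10 and Krtap13 were in all 12 samples. Several members have more than 1 probe, and these did not always match. For Krtap20-2, 3 of 4 probes were detected in all 12 samples and the last in none. For Krtap5-5, 1 of 4 probes was detected in all samples, while its other probes were detected in at most 1. Only 1 of 2 probes was detected for Krtap19-5 and Krtap5-2. Krtap genes are close copies of each other, and cross-binding between copies was not tested, so a signal may belong to more than the gene named.

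Among the keratins, Krt81, a type II cortex keratin, was the only keratin member above background in all 12 samples. Krt31 and Krt34, type I hair cortex keratins, were detected in 11 samples each, Krt71, Krt72 and Krt73 of the inner root sheath in 10, Krt35 of the early matrix in 8 and Krt75 in 7. Of the type I inner root sheath keratins Krt25 to Krt28, Krt28 alone was detected, in 1 sample. Apart from that 1 sample, the inner root sheath keratins detected were of type II, and the type I chains they pair with were not well above background.

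Loss of both genes raised 4 hair structural genes. Krt72, the type II keratin of the inner root sheath cuticle, rose 5.9-fold. Krtap10-4 rose 3.4-fold, Krtap3-2 at least 2.67-fold and Krtap5-3 1.97-fold. In this comparison 4 of 71 members (5.63%) passed an adjusted p of 0.05, all higher. Over all named genes 0.978% passed higher and 0.608% lower, and over all probes 0.524% and 0.309%. By the study's call, which adds an absolute log2 fold change over 1.5, there were 3 members (Krt72, Krtap10-4 and Krtap3-2). The background of that call was 0.342% of named genes higher and 0.0749% lower, and 0.172% and 0.0341% of probes. At an unadjusted p under 0.05 the share was 16.9% of members and 9.89% of probes.

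**Figure D2:**
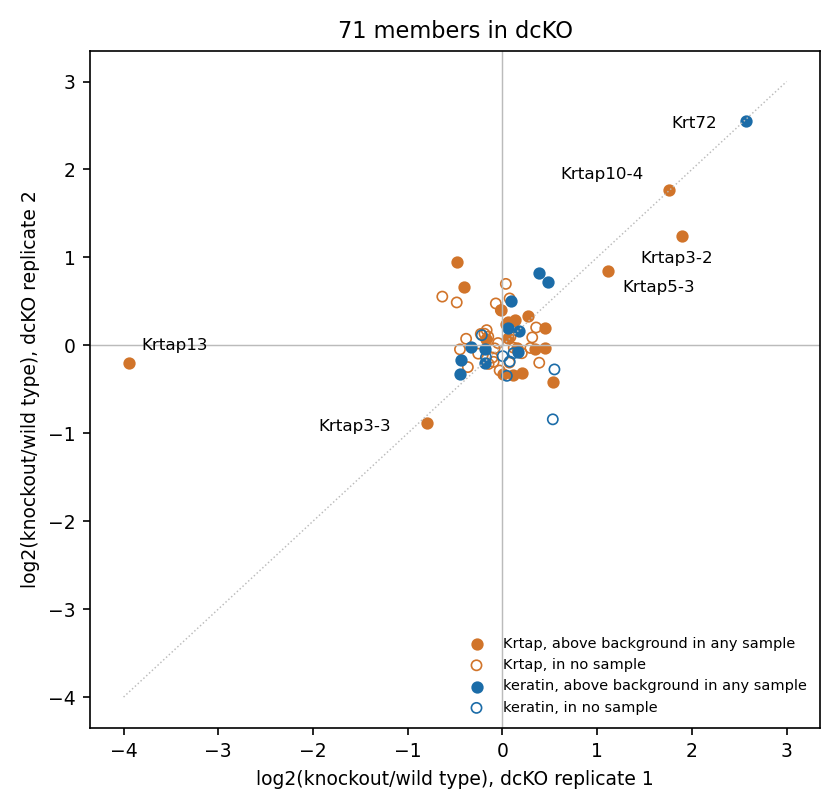
log2(knockout/wild type) of the 71 members on dcKO replicate 1 (horizontal axis) and replicate 2 (vertical axis), with Krtap genes in orange, keratins in blue, open circles for members above background in no sample, and a dotted line where the replicates are equal. Krt72, Krtap10-4, Krtap3-2 and Krtap5-3 lie to the upper right, Krtap3-3 lies low on both arrays and Krtap13 is low on replicate 1 alone.

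Krt72 had log2(knockout/wild type) values of 2.57 and 2.55 on the 2 dcKO arrays (mean 2.56 ± 0.02 SD, n = 2, adjusted p = 9.65e-05 in limma). On the Sox4 cKO arrays the values were −0.33 and −0.48, and on the Sox11 cKO arrays −0.24 and −0.81, so that both dcKO arrays stood apart from the other 4. Channel levels, the log2 signal of one sample after normalization between channels, show how the samples compare. In wild-type epidermis Krt72 had levels of 8.20 and 6.43 beside Sox4 cKO, 5.30 and 5.59 beside Sox11 cKO, and 6.87 and 5.94 beside dcKO. In the knockout samples the levels were 7.87 and 5.95 (Sox4 cKO), 5.06 and 4.78 (Sox11 cKO), and 9.45 and 8.49 (dcKO). The 2 dcKO samples were the highest of the 12. The wild-type samples nevertheless spanned 2.90 log2 units, more than the dcKO difference itself, and the highest of them, on Sox4 cKO replicate 1, came close to the lower dcKO sample.

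Krtap10-4, a cysteine-rich protein of a family found in the hair cuticle, had log2 values of 1.76 and 1.77 in dcKO (mean 1.76 ± 0.01 SD, n = 2, adjusted p = 0.000517). Sox4 cKO gave −0.26 and −0.10, while Sox11 cKO gave 0.02 and −0.07. The levels were 7.51 and 6.92 in the dcKO samples, and the wild-type samples ranged from 5.14 to 6.89. The 2 dcKO samples were again the highest of the 12, and the next was the wild-type sample of Sox4 cKO replicate 1.

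Krtap3-2, a high-sulfur protein of the hair cortex, had log2 values of 1.90 and 1.24 in dcKO (mean 1.57 ± 0.46 SD, n = 2, adjusted p = 0.00382). Sox4 cKO gave 0.72 and 0.17 (mean 0.45, adjusted p = 0.786), while Sox11 cKO gave −0.01 and 0.13. Krtap3-2 was well above background in both dcKO samples and in neither wild-type sample beside them. This makes the dcKO difference a bound of at least 2.67-fold. Elsewhere it was detected only on Sox4 cKO replicate 1, in both samples, at levels of 5.95 (wild type) and 6.67 (knockout). The dcKO levels were 6.998 and 5.997, so the Sox4 cKO sample lay between them.

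Krtap5-3, an ultra-high-sulfur protein, had log2 values of 1.11 and 0.84 in dcKO (mean 0.98 ± 0.19 SD, n = 2, adjusted p = 0.0154) and was above background in all 12 samples. Its values lay between −0.06 and 0.13 on the other 4 arrays. The levels were 7.78 and 7.36 in dcKO and between 6.40 and 6.67 in 5 of the 6 wild-type samples. Both samples of Sox4 cKO replicate 1 had higher levels, 7.47 in the wild type and 7.41 in the knockout. The call depended on both dcKO arrays, with an adjusted p of 0.37 without replicate 1 and 0.0505 without replicate 2.

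**Figure D3:**
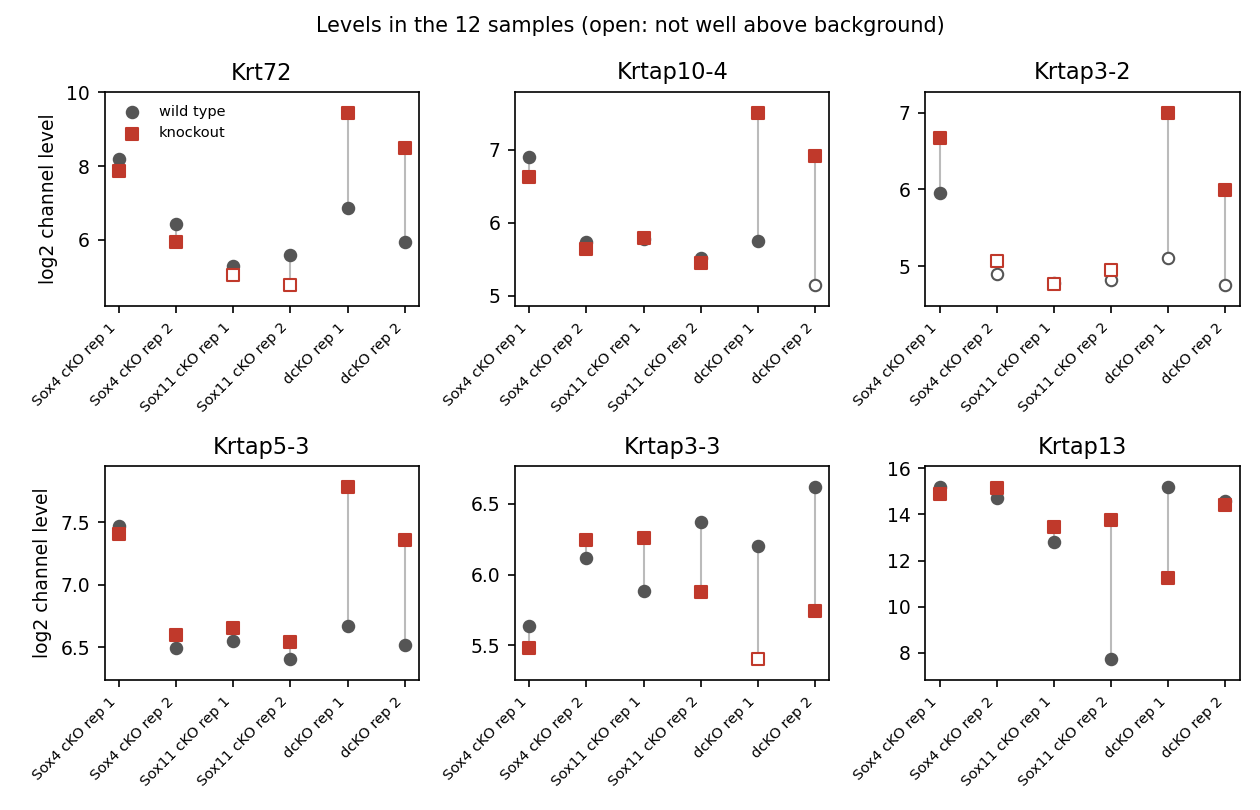
Log2 channel level (vertical axis) of 6 members in the wild-type (grey circles) and knockout sample (red squares) of each array (horizontal axis), joined by a line, with open symbols where the sample was not well above background. In the top row and in Krtap5-3 the knockout exceeds the wild type on both dcKO arrays. Both samples of Sox4 cKO replicate 1 are high in these genes, with a log2 ratio of 0.72 in Krtap3-2 and below 0 in the others.

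All 4 genes that rose in dcKO were thus high in both samples of Sox4 cKO replicate 1, knockout and wild-type littermate together. On that array the wild-type sample also had the highest summed level of 8 dermal fibroblast markers (21893, against 6254 to 12594 in the other 5 wild-type samples) and of 7 skeletal muscle markers (1243, against 210 to 381). The knockout sample of the array did not, with 10370 and 254. The part of these cells in the levels was not tested. Leaving this array out cannot test this, because the dcKO values come from the dcKO arrays alone. Those values stayed at 2.56 (Krt72), 1.76 (Krtap10-4), 1.57 (Krtap3-2) and 0.98 (Krtap5-3).

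The measured members next to those that rose did not pass the test. Krt72 lies in the type II keratin cluster of chromosome 15 between Krt74 (dcKO log2 0.14, adjusted p = 0.81) and Krt73 (−0.12, adjusted p = 0.853). Krt71, another type II keratin of the inner root sheath, lies 2 genes away and had values of 0.39 and 0.82 in dcKO (mean 0.60, adjusted p = 0.148). Without background subtraction Krt71 passed, at 0.47 (adjusted p = 0.0469). Krtap3-2 lies on chromosome 11 between Krtap3-1 (−0.14, adjusted p = 0.822) and Krtap3-3. Krtap3-3 had values of −0.80 and −0.88 in dcKO (mean −0.84, adjusted p = 0.125) and was below background in 1 of the 2 dcKO samples alone of all 12. Krtap10-10 and Krtap10-4 are adjacent members of one cluster on chromosome 10, and Krtap10-10 had 0.06 and 0.09 (adjusted p = 0.924). Krtap5-2 and Krtap5-5 flank Krtap5-3 on chromosome 7 among predicted genes, and had mean values of −0.16 and 0.21 (adjusted p = 0.739 and 0.653).

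By chromosome, the 32 members on chromosome 11 had a median dcKO log2 of −0.05, the 22 on chromosome 16 had 0.06 and the 9 on chromosome 15 had 0.14. The smaller sets had 0.23 (3 members, chromosome 10) and 0.20 (5 members, chromosome 7).

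The members lay on both sides of 0 in every genotype. Over the 71 members the median log2 for Sox4 cKO was 0.03, that for Sox11 cKO 0.00 and that for dcKO 0.04, where all named genes had a median of −0.01. In dcKO 21 members (29.6%) were higher on both arrays and 16 (22.5%) lower on both, against 25.5% and 27.98% of named genes. For the 51 Krtap genes the dcKO median was 0.06, and for the 20 keratins −0.05. An absolute mean log2 over 0.5 was reached by 8 members in dcKO (11.3%, against 5.51% of named genes) and by 3 members in each single knockout (4.23%, against 1.78% of named genes in Sox4 cKO and 2.04% in Sox11 cKO). The 38 members above background in no sample ranged from −0.31 to 0.37 in dcKO.

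**Figure D4:**
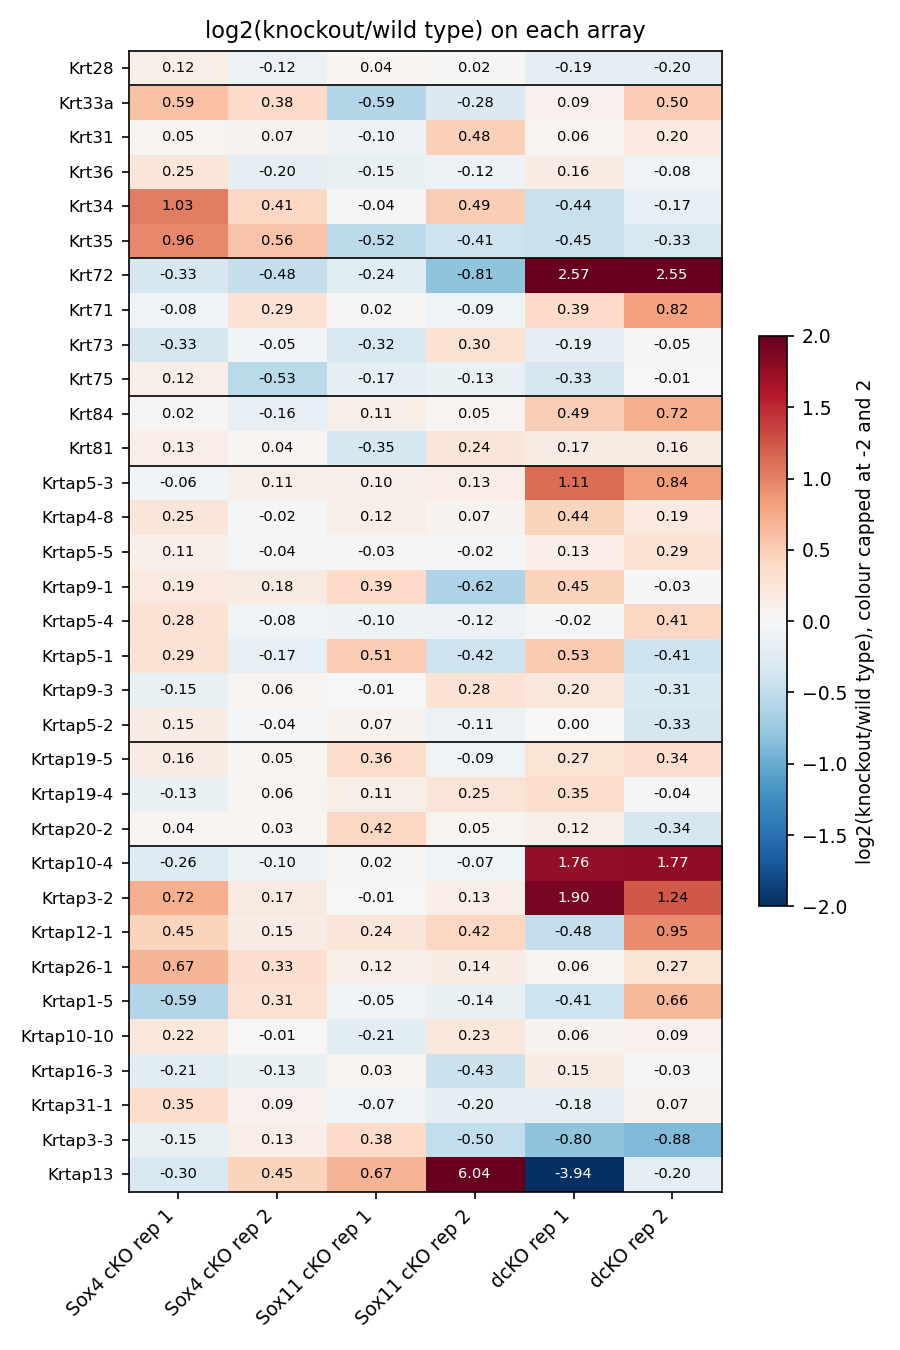
log2(knockout/wild type) on each of the 6 arrays (columns) for the 33 members above background in at least 1 sample (rows, grouped by class with black lines between them), with each value printed and the colour scale capped at −2 and 2. Krt72, Krtap10-4, Krtap3-2 and Krtap5-3 are high in both dcKO columns, while most other cells are pale.

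Among the type I hair keratins none passed the test in dcKO. Krt35, the keratin that precedes the others in the hair matrix, was at 0.96 and 0.56 after loss of Sox4, at −0.52 and −0.41 after loss of Sox11 and at −0.45 and −0.33 in dcKO. Its 2 arrays had the same sign in each genotype, and no adjusted p was under 0.05 (0.543, 0.694 and 0.417). In Sox4 cKO it was above background in both knockout samples and neither wild-type sample, and in dcKO the reverse. Krt34 had 1.03 and 0.41 in Sox4 cKO (adjusted p = 0.785) and −0.44 and −0.17 in dcKO (adjusted p = 0.66). Krt33a was at 0.59 and 0.38 without Sox4 and at −0.59 and −0.28 without Sox11 (adjusted p = 0.785 and 0.695). Krt31 had means of 0.06, 0.19 and 0.13 in Sox4 cKO, Sox11 cKO and dcKO.

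Among the type II hair keratins, Krt84, which belongs to epithelia with hard keratin such as tongue papillae and nail, had values of 0.49 and 0.72 in dcKO. It was above background in both dcKO samples and in neither wild-type sample beside them, at least 1.52-fold higher (adjusted p = 0.121). It passed without background subtraction (adjusted p = 0.0451) and with the dye effect subtracted first (adjusted p = 0.0471). Krt81 had 0.17 and 0.16 in dcKO, and its mean lay between −0.05 and 0.17 in the 3 genotypes. Of the companion layer and inner root sheath, Krt75 had mean values of −0.21, −0.15 and −0.17 and Krt73 of −0.19, −0.01 and −0.12 in Sox4 cKO, Sox11 cKO and dcKO.

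Apart from Krtap5-3, no ultra-high-sulfur member passed the test. In dcKO the means were −0.16 for Krtap5-2, 0.21 for Krtap5-5 and 0.32 for Krtap4-8. The replicates of Krtap5-1 had opposite signs in dcKO (0.53 and −0.41) and in Sox11 cKO (0.51 and −0.42). Those of Krtap9-1 did so as well, with 0.45 and −0.03 in dcKO and 0.39 and −0.62 in Sox11 cKO. The high-glycine-tyrosine proteins had 0.15 (Krtap19-4), 0.30 (Krtap19-5) and −0.11 (Krtap20-2). Krtap12-1 had −0.48 and 0.95 on its 2 dcKO arrays, so the replicates went opposite ways, and Krtap31-1 had a mean of −0.05.

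Deletion of a single gene changed no member past the threshold. In Sox4 cKO 0 of 71 members passed an adjusted p of 0.05 in limma, where 0.00539% of probes passed, and 9 members (12.7%) had an unadjusted p under 0.05 against 6.18% of probes. In Sox11 cKO 0 members passed, the background was 0%, and 5 members (7.04%) had an unadjusted p under 0.05 against 7.05% of probes. The highest means in Sox4 cKO were those of Krt35 (0.76), Krt34 (0.72) and Krtap26-1 (0.50, adjusted p = 0.785). The lowest were Krt72 (−0.40), Krtap6-1 (−0.33, adjusted p = 0.812) and Krt75 (−0.21). Krtap6-1 was above background in no sample and Krtap26-1 in 1. In Sox11 cKO the lowest were Krt72 (−0.53, adjusted p = 0.694, detected in both wild-type samples and in neither knockout, at least 1.42-fold lower), Krt35 (−0.46) and Krt33a (−0.44). Krtap19-3 (0.56, adjusted p = 0.694, in no sample above background) and Krtap12-1 (0.33, adjusted p = 0.827) were among the highest, after Krtap13.

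Whether the response to losing both genes differed from that to losing one was tested in the same limma model. Krt72 was higher in dcKO than in Sox4 cKO by a log2 of 2.96 ± 0.20 SE (adjusted p = 0.00096) and than in Sox11 cKO by 3.09 ± 0.20 SE (adjusted p = 0.000614). Krtap10-4 was higher by 1.94 ± 0.18 SE (adjusted p = 0.00457) and 1.79 ± 0.18 SE (adjusted p = 0.00775). Both also exceeded the sum of the single-knockout values, Krt72 by 3.49 ± 0.25 SE (adjusted p = 0.00178) and Krtap10-4 by 1.97 ± 0.22 SE (adjusted p = 0.0205). In each of these 3 contrasts 2 members passed, all higher. The background was 0.128% of probes higher against Sox4 cKO, 0.126% against Sox11 cKO and 0.0718% against the sum. Over named genes it was 0.229%, 0.234% and 0.136%. The Krtap10-4 differences depended on single arrays. Without Sox4 cKO replicate 1 its adjusted p against Sox4 cKO was 0.0633, and without Sox11 cKO replicate 1 or 2 its adjusted p against Sox11 cKO was 0.0618 or 0.12. Against the sum it was 0.052 to 0.172 without any 1 of the 4 single-knockout arrays.

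Krtap3-2 and Krtap5-3 rose in dcKO, but their differences from the single knockouts did not pass. For Krtap3-2 these were 1.12 ± 0.23 SE against Sox4 cKO (adjusted p = 0.253) and 1.51 ± 0.23 SE against Sox11 cKO (adjusted p = 0.0646). For Krtap5-3 they were 0.95 ± 0.19 SE and 0.86 ± 0.19 SE (adjusted p = 0.244 and 0.311). Between Sox4 cKO and Sox11 cKO 0 members passed, against 0.0018% of probes, and 4 members (5.63%) had an unadjusted p under 0.05 against 5.28% of probes. The largest such difference apart from Krtap13 was that of Krt35, 1.23 ± 0.20 SE (adjusted p = 0.929).

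Krtap13, a high-sulfur gene of the chromosome 16 cluster, had the most extreme single-array values of the 71 members. Its mean log2 intensity of 13.6 was far above that of the next brightest member, Krtap19-4 (8.99). Whether this signal belongs to Krtap13 alone was not tested. The Krtap13 probe was well above background in all 12 samples. Its ratio was nevertheless near 0 on 4 arrays (−0.30 and 0.45 in Sox4 cKO, 0.67 on Sox11 cKO replicate 1 and −0.20 on dcKO replicate 2) and extreme on the remaining 2. On Sox11 cKO replicate 2 the value was 6.04, the largest absolute value of any probe on that array. On dcKO replicate 1 it was −3.94, which ranked 9 among all probes. The levels place each extreme in 1 sample. In the wild type they were 15.18 and 14.70 beside Sox4 cKO, 12.79 and 7.72 beside Sox11 cKO, and 15.19 and 14.60 beside dcKO. The knockout samples had 14.89 and 15.16 (Sox4 cKO), 13.46 and 13.76 (Sox11 cKO), and 11.24 and 14.41 (dcKO). One wild-type and one knockout sample were thus low, on different arrays, and the groups did not separate. The means of 3.36 ± 3.79 SD in Sox11 cKO (n = 2, adjusted p = 0.51) and −2.07 ± 2.65 SD in dcKO (n = 2, adjusted p = 0.238) are smaller than the spread between their replicates. With either Sox4 cKO array left out of the limma fit the same means had adjusted p-values of 0.00288 and 0.00471. With either dcKO array left out the Sox11 cKO value was 0.0182.

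Other genes of the hair lineage were described from lists of regulators, signals and structural proteins. Of 18 regulators of hair differentiation 1 passed in dcKO, the transcriptional repressor Prdm1, which acts in terminal differentiation of epidermis and sebaceous gland (1.02 and 0.90, adjusted p = 0.042). Prdm1 no longer passed without dcKO replicate 1 (adjusted p = 0.504) or without dcKO replicate 2 (adjusted p = 0.119). Hoxc13 and Foxn1, activators of hair keratin genes, were above background in all 12 samples and had means of 0.00 and 0.02 in dcKO (adjusted p = 1.0 and 0.983). Lef1, a mediator of Wnt signals in the hair matrix, had −0.25 (adjusted p = 0.575) and Msx2 −0.46 (adjusted p = 0.276). Of 13 hair bud signalling genes 0 passed in dcKO by limma, and 7 had an unadjusted p under 0.05, which 9.89% of all probes had. Of the 13, 4 were higher on both dcKO arrays and 4 lower on both, with means from −0.65 to 1.31. Shh, the bud mitogen, was detected in both dcKO samples and in neither wild-type sample beside them, at least 1.48-fold higher (adjusted p = 0.123).

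Of 20 other inner root sheath and shaft genes 3 passed in dcKO, 1 higher and 2 lower. Vsig8, a membrane protein of the shaft and inner root sheath, fell on both arrays (−3.24 and −2.94, mean −3.09, adjusted p = 0.00429) and differed from both single knockouts (adjusted p = 0.0339 and 0.0208). Prr9, a proline-rich protein encoded in the epidermal differentiation complex, fell too (−1.49 and −1.55, mean −1.52, adjusted p = 0.00507). Without dcKO replicate 1 its adjusted p was 0.0671. Lipk, a lipase of differentiating keratinocytes, rose (0.87 and 0.99, adjusted p = 0.0326), with adjusted p of 0.403 without dcKO replicate 1 and 0.151 without dcKO replicate 2. Tchh, the trichohyalin of the inner root sheath and medulla, had −0.41 (adjusted p = 0.297). Thus Krt72 and Vsig8, both known from the inner root sheath, changed in opposite directions in dcKO.

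Of 13 outer root sheath and epidermal keratins 3 passed in dcKO. Krt17, a keratin of hair buds, outer root sheath and periderm, fell (−1.08 and −1.66, mean −1.37, adjusted p = 0.00507), and had −0.91 and −0.97 in Sox4 cKO (adjusted p = 0.301). Krt16, an inducible keratin of suprabasal cells and outer root sheath, rose (1.81 and 0.78, adjusted p = 0.0482). Krt80, a keratin of differentiating epithelia, rose as well (0.66 and 0.79, adjusted p = 0.0407). Each of these calls depended on single arrays. Krt17 had an adjusted p of 0.0787 without dcKO replicate 2. Krt16 had a log2 of 0.60 and an adjusted p of 0.62 without dcKO replicate 1. Krt80 had an adjusted p of 0.441 without dcKO replicate 1 and 0.403 without dcKO replicate 2. Without either Sox11 cKO array Krt16 and Krt80 had an adjusted p of 0.0603. Krt15, a basal and bulge keratin, had −0.34 (adjusted p = 0.428).

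**Figure D5:**
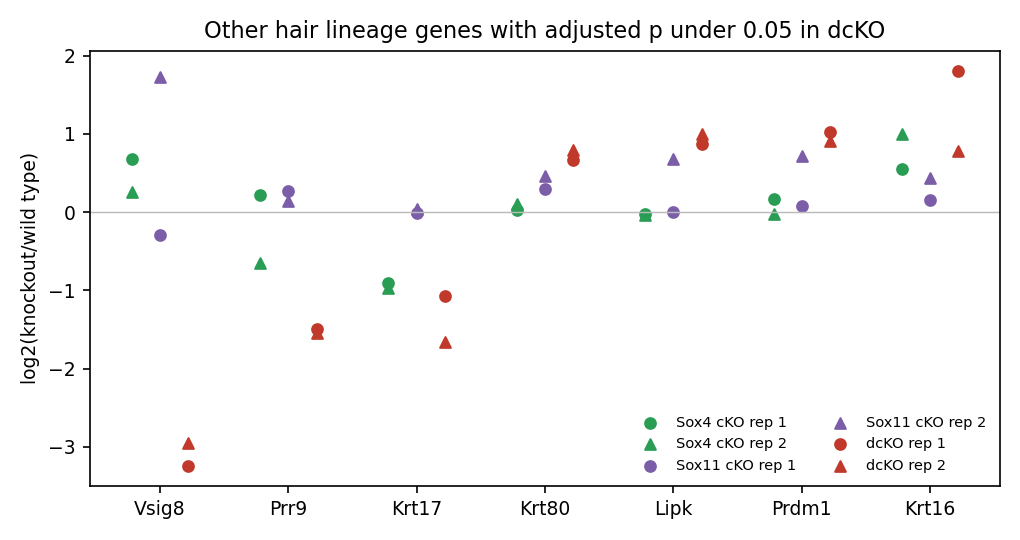
log2(knockout/wild type) (vertical axis) on each of the 6 arrays for the 7 hair lineage genes outside the members that passed adjusted p in dcKO (horizontal axis), coloured by genotype with circles for replicate 1 and triangles for replicate 2. Vsig8, Prr9 and Krt17 lie below 0 and Krt80, Lipk, Prdm1 and Krt16 above 0 on both dcKO arrays.

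The dermal fibroblast and periderm marker lists also lay away from 0 in dcKO. The dermal fibroblast list had a median log2 of −1.73, with 7 of its 8 markers below 0 on each dcKO array, and its summed level was 12594 and 8608 in the wild type and 9308 and 7758 in the knockout. All 6 periderm markers, Krt17 among them, were lower on both arrays (median −1.04), with 11781 and 12545 in the wild type and 7750 and 7540 in the knockout. In Sox11 cKO 4 of the 6 were lower on both arrays (median −1.15) and in Sox4 cKO 1 was (median 0.40). All 6 periderm markers were detected in all 12 samples. Melanocyte markers had a median of −0.06 in dcKO, skeletal muscle markers −0.35, blood vessel markers −0.02, immune cell markers 0.23 and red blood cell markers 0.30. The replicate medians had opposite signs for skeletal muscle (0.04 and −0.63), red blood cell (−0.28 and 1.01) and blood vessel markers (0.08 and −0.13). The part of all these cells in the changes of hair genes was not tested. In epidermal sheets fewer cells of a type cannot be told apart from less RNA per cell.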

How the data were processed

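Two-colour Agilent SurePrint G3 arrays of 12 RNA samples (6 knockout, 6 wild-type littermate) were used. The deposited scanner files (Agilent Feature Extraction 11.0.1.1) give each spot's median pixel intensity and local background in red and green, marks for spots well above background, and a log10 ratio of red over green. The authors' series table holds log2 ratios of knockout over wild type, made with normexp correction (offset 16) and loess in limma. It matched values computed here from the scanner files with a correlation of 0.9999 or higher on every array, so the ComBat colour correction named in the methods is not in it. No spot was saturated and the number of arrays limits the precision.

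The series table was fitted in R 4.3.3 with limma 3.58.1 over 55681 probes, with 3 genotype coefficients, 1 dye coefficient and empirical Bayes moderation (prior degrees of freedom 6.65, residual 2). All tests were two-sided, and adjusted p-values (Benjamini-Hochberg over all probes) come from limma. A probe passed at an adjusted p under 0.05 and was called when its absolute log2 fold change also exceeded 1.5. Adjusted p-values rest on how the knockout over wild-type ratios varied between arrays of a genotype, after the dye coefficient, pooled over genotypes. They do not measure how far single samples, labelled as biological replicates, differed in level. The dye coincides with the replicate number and is the replicate block. Deviations of same-numbered arrays from their genotype means correlated at 0.26 to 0.33. Because dye and number coincide, these correlations cannot tell a dye effect from a pairing of the samples. All arrays lay on 1 slide read in 1 scan.

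Accessions were named through RefSeq (GRCm38.p6), which gave 28331 probes 1 symbol. The array was annotated on another build, so no gene coordinates are given except those of the promoters, which belong to GRCm38.p6. A gene is represented by its brightest probe. Levels are the log2 signals of each channel, normalized by loess and then Aquantile, and "at least N-fold" sets the brighter side against a floor, the higher of the dim probe's own signal and the dimmest signal that counted as well above background. Named genes were the members passing adjusted p, those above background in both wild-type or both knockout samples of a genotype (up to 30), the 3 highest and 3 lowest per genotype, and listed hair lineage genes that passed. Neighbouring genes, and the listed genes that did not pass, were named after their values were seen. Krtap classes follow textbook family groupings. Members, lists and tests were chosen with earlier results of these data known. Fits were tested on simulated data. Alternatives were other background corrections (offset 50, none), the Feature Extraction ratio, no replicate block, the dye effect subtracted first, a filter on dim probes, the mean over a gene's probes and leaving out each array.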

Additional observations from a re-analysis of the deposited data

Results flagged for a closer look

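By adjusted p, Krt72 and Krtap10-4 responded differently to the loss of both genes than to the loss of one. The Krtap10-4 differences depended on single arrays. Krt72 differed by a log2 of 2.96 between dcKO and Sox4 cKO, 3.09 between dcKO and Sox11 cKO, and 3.49 from the sum of both single knockouts. For Krtap10-4 the values were 1.94, 1.79 and 1.97.

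Among the 6 wild-type samples, 8 of the 33 members above background in any sample had 1 sample far from the others, measured as its gap to the nearest sample over the whole range. For independent, normally distributed samples chance marks about 1 in 20, whereas these 8 fall on 3 samples and are not independent. The same share over all named genes was not computed, so the count is no result about the members. The wild-type sample of Sox4 cKO replicate 1 was the outlying high one for Krtap5-3 (0.748), Krtap16-3 (0.717), Krtap3-2 (0.709) and Krtap10-4 (0.638). The wild-type sample of Sox11 cKO replicate 2 was the outlying low one for Krt81 (0.738), Krtap10-10 (0.708) and Krtap13 (0.679), and that of Sox11 cKO replicate 1 for Krt84 (0.633). Of the 4 members that rose in dcKO, 3 are in this list.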

How the results depend on the processing

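Krt72 kept its rise in dcKO and its differences from both single knockouts and their sum under 13 of 14 alternatives, all but the Feature Extraction ratio. Krtap10-4 and Krtap3-2 also passed in dcKO under 13 of 14, and Krtap5-3 under 11. The Krtap10-4 differences passed under fewer, 12 against Sox4 cKO, 11 against Sox11 cKO and 9 against the sum. With the Feature Extraction ratio 0 members passed or were called in dcKO, in dcKO minus Sox4 cKO, minus Sox11 cKO or minus the sum, although its dcKO values were 2.95 for Krt72, 2.71 for Krtap10-4 and 3.91 for Krtap3-2 (adjusted p = 0.228 to 0.25), and the cause was not tested. With an offset of 50, 1 member was called in dcKO, in dcKO minus Sox4 cKO and in dcKO minus the sum, and 5 passed in dcKO minus Sox11 cKO (Krt72, Krtap10-4, Krtap13, Krtap3-2 and Krtap5-3). Without background subtraction 1 member was called and 6 passed in dcKO (Krt71 and Krt84 beside the 4), and 4 passed in dcKO minus Sox4 cKO and in dcKO minus Sox11 cKO. Without the replicate block 4 members passed in dcKO, as with it, and no member's call changed, but Krt16, Krt80, Lipk and Prdm1 had adjusted p-values of 0.0536, 0.0927, 0.0749 and 0.0633.

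Leaving out 1 array at a time gave 3 to 5 members passing and 2 to 4 called in dcKO. In dcKO minus Sox4 cKO 1 to 3 passed or were called, in dcKO minus Sox11 cKO 1 to 4, and in dcKO minus the sum 1 to 3. In Sox11 cKO, and in Sox4 cKO minus Sox11 cKO, 0 to 1 passed or were called, and this was Krtap13 each time (without either Sox4 cKO or either dcKO array for the first, without Sox4 cKO replicate 1 for the second). A genotype left with 1 array is assumed to vary like the others. Krtap3-3 passed in dcKO with an offset of 50 (−0.54, adjusted p = 0.04) and without either Sox11 cKO array (0.0428).

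The medians over members moved by more than the replicate spread. In Sox4 cKO the median was 0.00 with the Feature Extraction ratio, 0.058 over probes above background only and −0.0104 with the mean of a gene's probes, and 0.0252 to 0.0600 with an array left out. In Sox11 cKO it was −0.0578 to 0.0622 with an array left out. In dcKO it was 0.0196 with an offset of 50, 0.0279 without background subtraction, 0.0881 with the Feature Extraction ratio, 0.127 over probes above background only and 0.0132 with the mean of a gene's probes, and 0.0256 to 0.0501 with an array left out. Krt75 in Sox4 cKO ranged from −0.62 to 0.21 with an array left out and turned positive without Sox4 cKO replicate 2, and Krtap19-3 in Sox11 cKO was 0 with the Feature Extraction ratio. With 2 arrays a genotype and most members near background, small changes were not detectable.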
